A study of Mus musculus with 7 samples.

Results

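The 10 neural progenitor genes described here are Sox1, Sox2, Sox3, Pax6, Hes1, Hes5, Nes, Vim, Fabp7 and Msi1. They were found by symbol in a table of 25461 genes measured by RNA-seq in whole E11.5 mouse embryos, 3 KO and 4 WT for SLMAP3, a tail-anchored membrane protein. All 10 had 1 row in the table and all 10 passed the filter for testing, an average of 1 FPKM or more (fragments per kilobase of transcript, relative to library depth). The genes were chosen from earlier results of the same KO against WT comparison, so their differences between genotypes are given as a description, without a test, and support nothing by themselves.

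The embryos were of the B6C3F1 background. KO embryos lacked SLMAP3 in all tissues: loxP sites flanked exon 3, the floxed allele had been cut by a CMV-driven cre, and the embryos came from crosses of heterozygous mice that no longer carried the cre. WT embryos carried neither cleaved allele nor cre. The deletion removes the SLMAP3 isoform only, and the shorter SLMAP isoforms remain. Each library was made from the RNA of 1 whole embryo, less the tail taken for genotyping, with a TruSeq RNA v2 kit from Illumina, and none were pooled. The labels place the embryos in 3 numbered series, KOAC8 with 1 KO and 1 WT embryo, KOAC9 with 1 WT embryo, and KOAC10 with 2 KO and 2 WT embryos, and do not say what the numbers stand for.

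The cells that line the cavity of the neural tube are neural progenitors: they divide, and their daughters leave the lining to become neurons and, later, glia. SOXB1 transcription factors keep these cells undifferentiated, and Notch signalling between neighbours switches on the HES repressors, which hold back the proneural factors that start neuronal differentiation. Nestin and vimentin form their intermediate filaments, Fabp7 marks the radial glial form that they take as neurons are made, and Msi1 binds mRNAs in them. Several of the genes are active elsewhere too, Vim throughout the mesenchyme, Pax6 in lens, retina and pancreas, Hes1 in many epithelia and Fabp7 in Schwann cell precursors.

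Total Slmap, which includes the isoforms that the deletion spares, measured 16.0 to 19.6 FPKM in KO embryos and 22.8 to 31.2 FPKM in WT embryos, so the library labels and the level of the targeted gene went together. The relative sequencing depth of the embryos, read from the steps between low FPKM values, ran from 0.81 to 1.21 of their average. In the KO embryo KOAC10-5 and the WT embryos KOAC10-7 and KOAC10-2, the 8 fetal liver genes summed to 15.7, 6.25 and 9.23 FPKM, against 465 to 814 FPKM in the other 4 embryos. The level of the liver genes therefore set 1 KO and 2 WT embryos apart from 2 KO and 2 WT embryos. In bulk RNA, fewer cells of a type and less RNA per cell cannot be told apart.

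The promoter of Hes5 is shown because Hes5 is the classical target of Notch signalling in neural progenitors and had more motif matches than any other promoter read here, and that of Fabp7 because Fabp7 was the gene whose level did not follow the others. RefSeq promoters on GRCm38.p6 were at hand for 7 of the 10 genes, 8 promoters in all, and not for Sox3, Hes1 and Msi1. The 250 bases before the start annotated in RefSeq are printed 5′ to 3′. That start can differ from the GENCODE gene positions given below. The Fabp7 window ends at 57784922, whereas the GENCODE gene begins at 57784881. Capitals mark a match, on either strand, to the RBPJ core TGGGAA, the SOX core CATTGT or the N-box CACNAG, the motif that HES proteins bind.
Hes5, chr4:154960673-154960922, plus strand: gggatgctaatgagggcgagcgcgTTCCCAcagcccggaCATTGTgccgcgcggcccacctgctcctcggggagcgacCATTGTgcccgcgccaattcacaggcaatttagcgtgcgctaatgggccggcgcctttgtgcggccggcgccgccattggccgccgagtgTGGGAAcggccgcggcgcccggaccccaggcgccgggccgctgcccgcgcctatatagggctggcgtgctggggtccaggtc
Fabp7, chr10:57784673-57784922, plus strand: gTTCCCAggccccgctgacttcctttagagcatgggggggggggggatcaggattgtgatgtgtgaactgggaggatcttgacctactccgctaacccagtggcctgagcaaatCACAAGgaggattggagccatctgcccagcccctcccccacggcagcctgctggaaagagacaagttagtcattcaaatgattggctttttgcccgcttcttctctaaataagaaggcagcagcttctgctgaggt

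The Hes5 promoter held 2 RBPJ cores, beginning 226 and 82 bases before the start, in opposite orientations, and 2 SOX cores, beginning 211 and 172 bases before it. The Fabp7 promoter held 1 RBPJ core at its far end, 249 bases before the start, and 1 N-box 136 bases before it. The Vim promoter and the second of the Pax6 promoters held 1 N-box each. No match to these motifs, nor to the octamer ATGCAAAT, was present in the windows of Sox1, Sox2 and Nes or in the other Pax6 promoter. Of 32851 promoters of the same length, 21.6% held an RBPJ core, 10.69% a SOX core, 36.7% an N-box and 1.60% the octamer. A match describes letters and not a bound site, and distances are from the RefSeq start. The windows of Vim, Sox1, Nes and the second Pax6 promoter also lay partly or wholly inside the GENCODE gene. That of Sox2 ended short of its GENCODE gene.

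FPKM is scaled by length, so the levels of the genes can be set in order. The mean over the 7 embryos was highest for Vim (735 FPKM), followed by Fabp7 (365), Msi1 (119), Nes (115), Hes5 (84.6), Sox2 (51.2), Hes1 (38.4), Pax6 (25.3), Sox3 (15.5) and Sox1 (8.18). Each gene was above the next in all 7 embryos, with the exception of Msi1 and Nes, where Msi1 was the higher in 4 of 7 embryos and the means differed 1.03-fold. Among all genes tested, Vim lay at percentile 99.0 of the mean level and Sox1 at 39.0. The authors' mean normalized count ran from 1643 for Sox3 to 62724 for Vim, which puts the counting error of an average embryo near 2.47% and 0.40%, below the 5.75% to 20.04% by which the genes varied (coefficient of variation) among WT embryos.

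**Figure D1:**
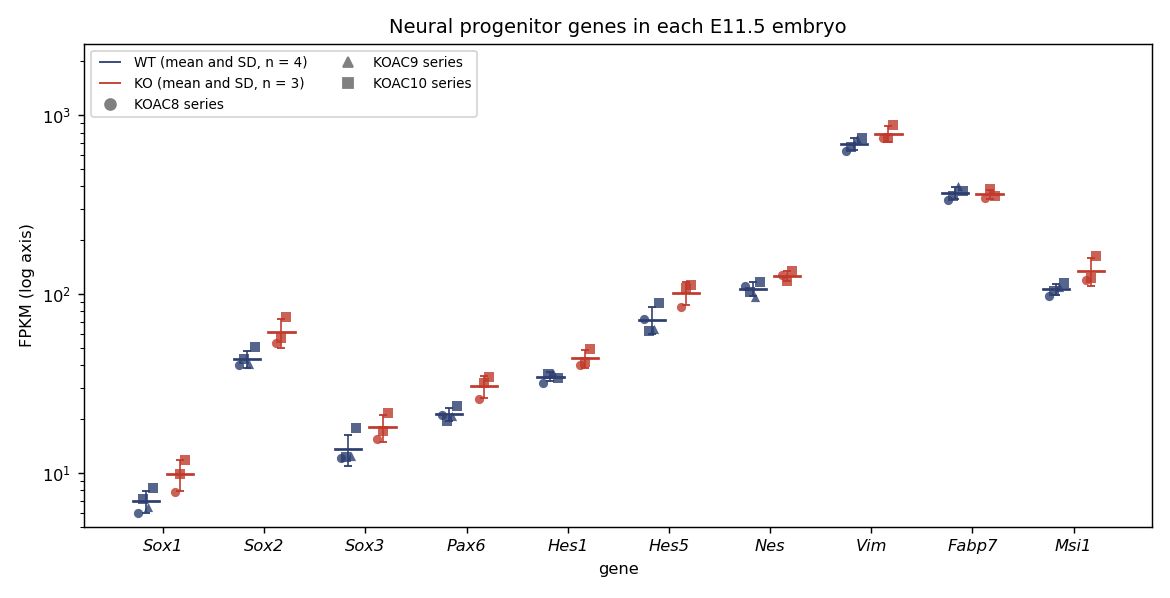
FPKM of the 10 genes (log axis) in each embryo, WT in blue and KO in red. Marker shapes give the series in the embryo labels, horizontal bars the mean and error bars the SD (n = 4 WT, n = 3 KO). For Sox2, Pax6, Hes1, Nes, Vim and Msi1 every KO point lies above every WT point, and for Fabp7 the groups lie on top of each other.

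Of the 10 genes, 9 had a higher mean in KO embryos and 1, Fabp7, a slightly lower one. In 6 of them, Sox2, Pax6, Hes1, Nes, Vim and Msi1, every KO embryo was above every WT embryo, a pattern seen in 5.61% of all genes tested and one that the choice of the genes already holds. The median log2 fold change of the 10 genes, KO against WT on the log2(FPKM + 1) scale, was 0.35, and that of all genes tested 0.01. Among all 16095 genes tested, 8554 had a positive and 7541 a negative log2 fold change.

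Sox1, Sox2 and Sox3 are the SOXB1 factors, closely related HMG-box activators with overlapping roles. Each has a single exon in the GENCODE M21 annotation of GRCm38: Sox1 at chr8:12395295-12400126 on the plus strand, Sox2 at chr3:34650405-34652461 on the plus strand and Sox3 at chrX:60891366-60893430 on the minus strand. Despite their kinship, no stretch of 50 bases was shared between any pair of them, so their reads could be told apart. The annotation places Sox2ot, a noncoding transcript of 5.93 to 12.7 FPKM, around Sox2 and Sox1ot, of 2.30 to 3.50 FPKM, around Sox1, both on the same strand and with 0 shared exonic bases. The miRNA gene Gm25239 lies in 86 exonic bases of Sox1.

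Sox2 is the most widely used marker of neural progenitors and is also expressed in foregut epithelium and lens. It measured 53.4, 56.5 and 74.5 FPKM in the KO embryos KOAC8-6, KOAC10-5 and KOAC10-8, and 39.9, 43.2, 40.5 and 50.3 FPKM in the WT embryos KOAC8-1, KOAC10-7, KOAC9-1 and KOAC10-2. The groups did not overlap, although the highest WT and the lowest KO embryo were close. The KO mean was 61.5 ± 11.4 FPKM (SD, n = 3) and the WT mean 43.5 ± 4.76 FPKM (SD, n = 4), a log2 fold change of 0.48 (SE 0.13).

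Sox1, the SOXB1 factor most restricted to neural tissue, measured 7.86, 9.90 and 11.7 FPKM in the same order of KO embryos and 5.95, 7.11, 6.42 and 8.25 FPKM in the same order of WT embryos. The groups overlapped, because the WT embryo KOAC10-2 exceeded the KO embryo KOAC8-6. The log2 fold change was 0.44 (SE 0.15).

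Sox3, the X-linked member, measured 15.4, 17.2 and 21.5 FPKM in KO embryos and 12.1, 12.3, 12.5 and 17.8 FPKM in WT embryos. KOAC8-1, KOAC10-7 and KOAC9-1 lay within a narrow range, and the WT embryo KOAC10-2 stood above them and above 2 of the 3 KO embryos. The log2 fold change was 0.38 (SE 0.16), the difference with the largest error of the 10, and was 0.25 without KOAC10-8.

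The proportions of the SOXB1 genes were alike in KO and WT embryos, while their sum was higher in KO embryos. Sox2 made up 67.6% to 69.7% of the summed SOXB1 FPKM in KO embryos and 65.9% to 69.0% in WT embryos, Sox3 19.99% to 20.5% and 19.7% to 23.3%, and Sox1 10.25% to 11.9% and 10.3% to 11.4%. The sum itself was 76.7 to 108 FPKM in KO embryos and 57.9 to 76.3 FPKM in WT embryos. All 3 proportions overlapped between the genotypes.

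Pax6 (chr2:105668900-105697364, plus strand) encodes a paired-box and homeobox factor that patterns the neural tube and is required for the eye. The antisense gene Pax6os1, at 0.22 FPKM or less, overlaps it without shared exonic bases. The level of Pax6 was 25.9, 31.7 and 34.3 FPKM in KO embryos and 21.1, 19.5, 20.8 and 23.8 FPKM in WT embryos. The groups did not overlap, and the log2 fold change was 0.50 (SE 0.11). The KO mean was 144% of the WT mean. The lens and retina list, 10 genes of which 8 passed the filter, had 0 of its markers at 0 in any embryo. It summed to 24.1 to 52.2 FPKM in KO embryos and 36.8 to 53.0 FPKM in WT embryos. The lowest sum was in the KO embryo KOAC10-8, in which Pax6 was highest. This sum is weighted to genes of high FPKM that varied widely, such as Cryaa and Cryba1. These measured 3.76 and 1.11 FPKM in KOAC10-8, and 20.5 and 12.03 FPKM in the WT embryo KOAC9-1. Of the 8 genes tested, 5 had a positive and 3 a negative log2 fold change, so the sum does not describe the list as a whole.

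Hes5 and Hes1 encode the basic helix-loop-helix repressors that Notch signalling induces, Hes5 being largely confined to the nervous system. Hes5 (chr4:154960923-154962371, plus strand), the promoter of which is printed above, measured 84.8, 108 and 112 FPKM in KO embryos and 72.5, 61.9, 64.1 and 89.0 FPKM in WT embryos. The groups overlapped by the WT embryo KOAC10-2, and the log2 fold change was 0.50 (SE 0.15).

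The value of Hes5 is uncertain in 1 respect. Gm20421, a transcript annotated on the opposite strand, shares 433 exonic bases with it, 31.8% of the exonic length of Hes5, and 21.8% of the 50-base stretches of Hes5 also occur in Gm20421. The library kit does not mark strand, so reads in the shared bases cannot be assigned to either gene by strand. Gm20421 itself measured 11.98 to 15.6 FPKM in KO embryos and 8.89 to 10.4 FPKM in WT embryos, well below Hes5 in every embryo.

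Hes1 (chr16:30064384-30067796, plus strand) measured 39.9, 41.8 and 49.4 FPKM in KO embryos and 31.9, 35.9, 36.1 and 34.1 FPKM in WT embryos. The groups did not overlap and the log2 fold change was 0.33 (SE 0.08). The ratio of Hes5 to Hes1 was 2.13 to 2.59 in KO embryos and 1.72 to 2.61 in WT embryos, with wide overlap.

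Nes and Vim encode the intermediate filament proteins nestin and vimentin. Nes (chr3:87971078-87980451, plus strand) measured 128, 118 and 134 FPKM in KO embryos and 111, 102, 96.3 and 118 FPKM in WT embryos. The groups touched: the lowest KO embryo, KOAC10-5, and the highest WT embryo, KOAC10-2, differed by less than 1 FPKM, and the log2 fold change was 0.25 (SE 0.08).

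Vim (chr2:13573927-13582826, plus strand) measured 742, 748 and 880 FPKM in KO embryos and 632, 668, 735 and 741 FPKM in WT embryos. The groups again met almost without a gap, with 2 KO and 2 WT embryos between 735 and 748 FPKM, and the log2 fold change was 0.18 (SE 0.09), or 0.10 without KOAC10-8. The mesenchyme list, of a tissue in which Vim is abundant, lay the other way in sum: its 10 genes summed to 690 to 911 FPKM in KO embryos and 952 to 1086 FPKM in WT embryos, with 0 of its markers at 0 in any embryo. This sum is weighted to genes of high FPKM, such as Col3a1 (240 to 326 in KO, 353 to 403 in WT embryos). Of the 10 genes, 8 had a negative log2 fold change, and Twist1 (0.05) and Pdgfrb (0.01) a positive one.

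Fabp7 (chr10:57784881-57788450, plus strand), the brain fatty acid binding protein, measured 345, 387 and 352 FPKM in KO embryos and 336, 355, 403 and 376 FPKM in WT embryos. The groups overlapped over nearly their whole range, and the KO mean was 98.4% of the WT mean (log2 fold change -0.02, SE 0.08). Its sign turned with the series as a block and without KOAC8-6 or KOAC9-1, and leaving out each embryo gave values from -0.07 (without KOAC10-5) to 0.02. The series block gave the same estimate as leaving out KOAC9-1, because the KOAC9 series held that embryo only. Relative to Sox2, the level of Fabp7 was 4.73 to 6.85 times as high in KO embryos and 7.48 to 9.95 times as high in WT embryos, without overlap. Fabp7 hardly differed and Sox2 did not overlap, so this ratio mostly restates the Sox2 difference, which the choice of the genes already holds. The list of neural crest and Schwann cell precursor genes, in which Fabp7 is also expressed, summed to 47.8 to 50.1 FPKM in KO embryos and 48.9 to 51.4 FPKM in WT embryos, with 0 of its markers at 0.

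Msi1 (chr5:115429599-115455698, plus strand) encodes Musashi-1, an RNA-binding protein that represses translation of the Notch inhibitor Numb. The antisense gene 4930430O22Rik overlaps it with 0 shared exonic bases and measured 0.34 to 0.85 FPKM. Msi1 measured 120, 123 and 162 FPKM in KO embryos and 98.1, 103, 109 and 116 FPKM in WT embryos. The groups did not overlap, but 2 of the KO embryos lay close to the highest WT embryo and KOAC10-8 far above, and the log2 fold change was 0.33 (SE 0.12), or 0.19 without KOAC10-8.

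**Figure D2:**
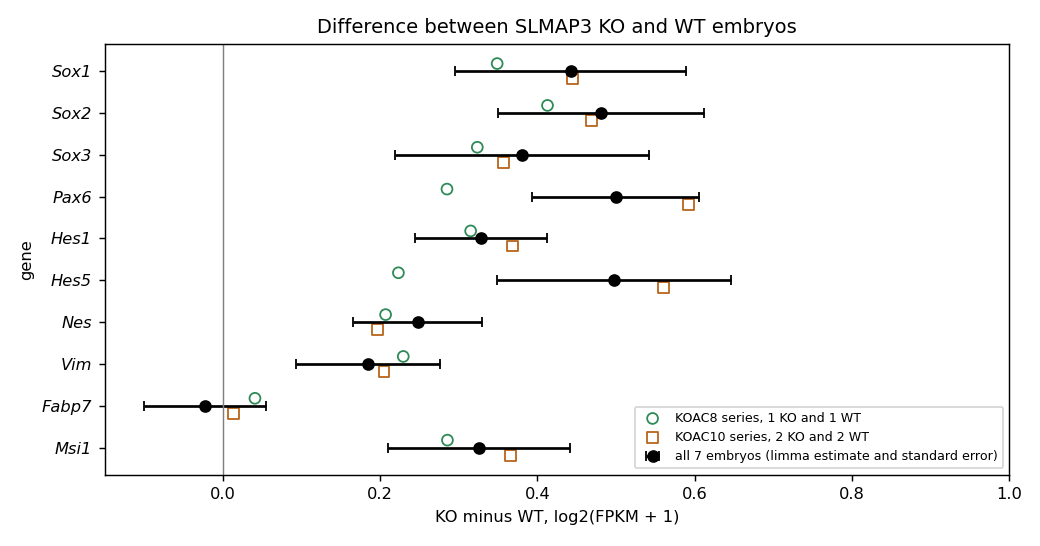
Difference of KO and WT embryos in log2(FPKM + 1) for each gene, estimated by limma over all 7 embryos (black, with standard error) and within the KOAC8 series (green circles, 1 KO and 1 WT) and the KOAC10 series (orange squares, 2 KO and 2 WT). All 9 genes other than Fabp7 lie to the right of 0 in both series, and Fabp7 lies within 0.05 of 0 in all 3 estimates.

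The direction was the same in both series that held both genotypes. For Sox2, Pax6, Hes1, Nes, Vim and Msi1, in which every KO embryo was above every WT embryo, no split could give another direction. Within KOAC8 the KO embryo was above the WT embryo for all 10 genes, by 0.41 for Sox2 and 0.29 for Pax6 at the upper and middle of the range and 0.04 for Fabp7 at its lower end, on the log2(FPKM + 1) scale. Within KOAC10 the means differed by 0.59 for Pax6, 0.56 for Hes5 and 0.47 for Sox2, and by 0.01 for Fabp7. Pax6 and Hes5 had the widest gap between the series, 0.29 and 0.22 in KOAC8. With 1 embryo per genotype, the KOAC8 values have no replicate check.

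The same comparison was made within embryos of like liver gene level. Among the 3 embryos with low liver genes, KO exceeded WT by 0.54 for Pax6 and Hes5, 0.27 for Sox2 and 0.08 for Fabp7. Among the other 4, the differences were 0.49 for Pax6, 0.51 for Hes5 and 0.64 for Sox2, and -0.08 for Fabp7. The 9 genes other than Fabp7 were positive in both. All of these but Pax6 and Hes5 had the smaller difference among the 3 embryos with low liver genes, from 0.20 against 0.53 for Sox3 to 0.10 against 0.34 for Nes and 0.09 against 0.24 for Vim, so that Nes and Vim were there about as close to 0 as Fabp7. The gap between these sets of embryos was not tested, and the 3 embryos with low liver genes held 1 KO embryo only. For Sox2, Pax6, Hes1, Nes, Vim and Msi1, the lack of overlap over all embryos fixed a positive difference in both sets. Among the other 4 embryos, every KO embryo was above every WT embryo in 9 of the 10 genes, as in 24.1% of all genes with so few embryos.

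KOAC10-8 was the highest of the 7 embryos in 9 of the 10 genes, all but Fabp7, and the WT embryo KOAC8-1 the lowest in 7. KOAC10-8 also had the highest total FPKM over all genes, 861448, against 770063 to 813357 in the other embryos. With every embryo scaled to a common sum, the median log2 fold change of the 10 genes was 0.34 and that of Vim 0.17. The mean z-score over the genes was 1.42 in KOAC10-8, 0.65 in KOAC10-5 and 0.13 in KOAC8-6, and in WT embryos it was 0.09 in KOAC10-2, -0.53 in KOAC9-1, -0.78 in KOAC10-7 and -0.98 in KOAC8-1. Hence the KO embryo KOAC8-6 and the WT embryo KOAC10-2 were nearly level. Without KOAC10-2, 9 of the 10 genes had every KO above every WT embryo (8.49% of all genes then did), and without KOAC8-6 it was 8 (9.50%). Without KOAC10-8 it remained 6 (8.25%), and the median log2 fold change was 0.25. Leaving out an embryo can only keep or raise the number of genes without overlap, so that number is no check.

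**Figure D3:**
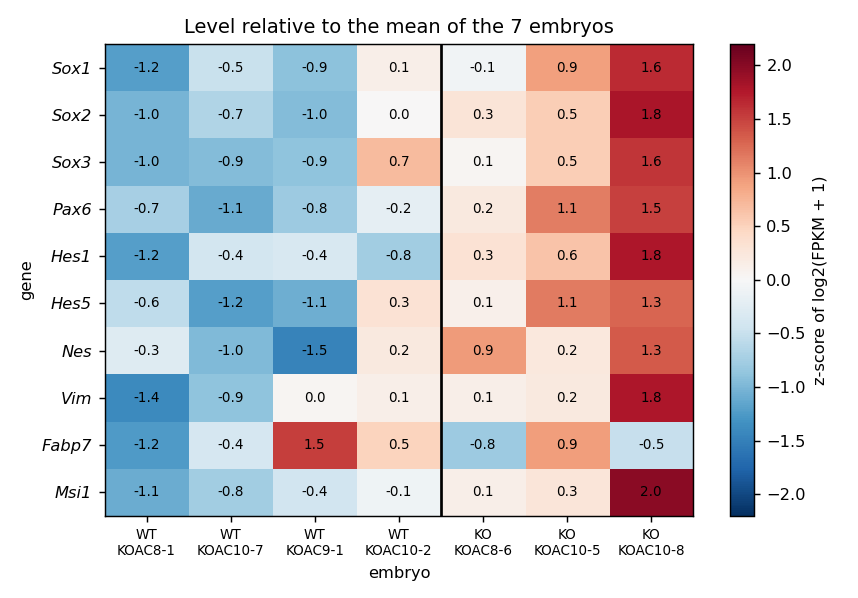
Row z-scores of log2(FPKM + 1) for the 10 genes (rows) in 4 WT and 3 KO embryos (columns, parted by the black line), blue below and red above the mean of the 7 embryos. The KO embryo KOAC10-8 is the highest in every row but Fabp7, and KOAC10-2 is the WT embryo with the highest mean z-score, 0.09.

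Embryos of 1 genotype also differed from one another, and most of the genes did so together. The SD within genotype on the log2(FPKM + 1) scale had a median of 0.16 over the 10 genes, from 0.10 for Fabp7 to 0.24 for Sox3, and 7 of the 10 were above the all-gene median of 0.12. After the mean of each genotype was subtracted, the Pearson correlation between pairs of the genes over the 7 embryos was positive in 43 of 45 pairs, with a median of 0.65. The median correlation of these genes with all other tested genes was 0.04. The genes of an embryo share its library, depth and total FPKM, so these correlations are a description over 7 points.

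The closest pairs were Vim and Msi1 (r = 0.94), Sox2 and Sox3 (r = 0.93), Sox1 and Sox2 (r = 0.93) and Pax6 and Hes5 (r = 0.93). The HES repressors themselves barely varied together, Hes1 and Hes5 having r = 0.16, which ran from -0.27 (without KOAC8-6) to 0.32 (without KOAC10-7) when each embryo was left out, and was -0.25 without KOAC10-8. Hes1 went rather with Msi1 (r = 0.85) and Vim (r = 0.81). Fabp7 was the least tied to the rest, with r = -0.57 against Nes and 0.01 against Sox2. Leaving out each embryo kept the median over the pairs between 0.53, without KOAC10-8, and 0.74, without KOAC10-5.

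**Figure D4:**
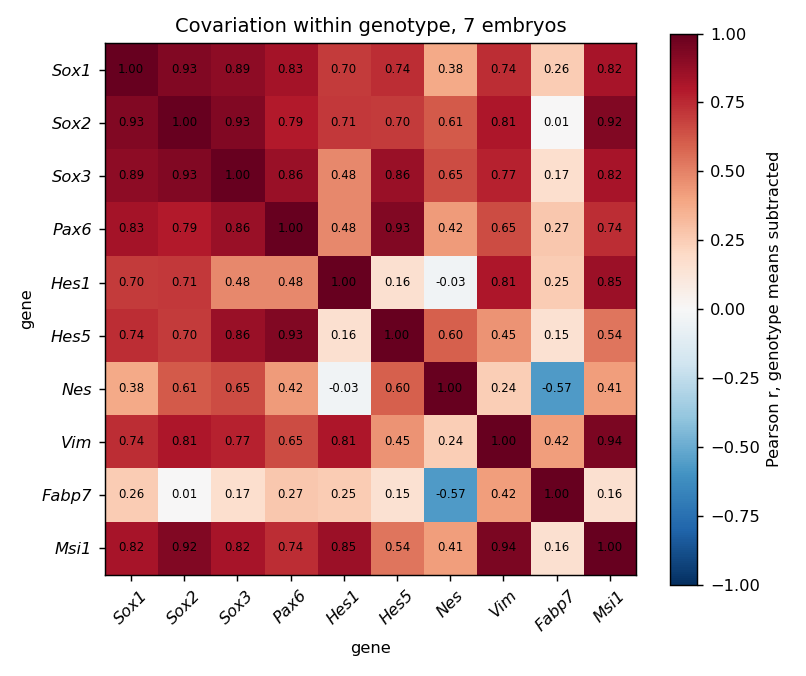
Pearson correlation over the 7 embryos (3 KO, 4 WT) between the log2(FPKM + 1) values of the 10 genes after the mean of each genotype was subtracted, from -1 (blue) to 1 (red). Sox1, Sox2, Sox3 and Pax6 form a block with r of at least 0.79, and the Fabp7 row is pale, with a minimum of -0.57 against Nes.

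The genes tested whose level was most like the mean z-score of the 10 genes over the 7 embryos were Foxq1 (r = 0.99), Cntfr, Cpt1b, Spr, Gprc5a, Otx1, Dbx1 and Miat (r = 0.98 each). Otx1 and Dbx1 are homeobox genes of the early brain and neural tube, and Cntfr encodes the receptor subunit that binds ciliary neurotrophic factor. Within genotype, the most alike were Angel1 (r = 0.99), Abhd12 (r = 0.99), Ngrn (r = 0.99), H2afx, Selenov, Cntfr, Alpl and Grcc10 (r = 0.98 each). Cntfr was on both lists. These are the highest values among all tested genes outside the 10, over 7 points.

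The Notch pathway list held 20 genes, of which 18 passed the filter. By limma with Benjamini-Hochberg adjustment over 16095 genes, 0 had an adjusted p under 0.05 (0.0373% of all genes did, 6 in number). An unadjusted p under 0.05 was found for 6, all of them higher in KO embryos, and for 11.5% of all genes, and the median log2 fold change was 0.09. In 7 genes every KO embryo was above every WT embryo and in 1 below (5.61% of all genes tested were above and 5.98% below). Nrarp, a feedback inhibitor that Notch induces, measured 33.5 to 39.6 FPKM in KO embryos and 26.01 to 31.6 FPKM in WT embryos (log2 fold change 0.36, SE 0.09). Dll4, a Notch ligand, measured 3.34 to 4.25 FPKM in KO embryos and 2.54 to 3.13 FPKM in WT embryos (0.30, SE 0.10). Dll4 is chiefly an endothelial ligand, and of the 8 endothelial genes 4 had every KO embryo above every WT embryo, among them Kdr, the VEGF receptor (15.5 to 16.4 against 13.6 to 14.0 FPKM), and Tek (5.92 to 6.45 against 5.50 to 5.73 FPKM). Of these 8 genes, 6 had a positive and 2 a negative log2 fold change. Numbl, which like Numb opposes Notch, was the gene below, with 19.8 to 21.6 FPKM in KO embryos and 21.7 to 28.1 FPKM in WT embryos (-0.23, SE 0.10). Numb itself went the other way and was among the 7 above. It measured 17.1 to 17.6 FPKM in KO embryos and 16.2 to 16.7 FPKM in WT embryos (0.07, SE 0.04).

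Another 25 genes of neural progenitors were listed beside the 10, among them Sox9, Pax3, Otx2, Zic1 and Cdh2. All 25 passed the filter, 0 had an adjusted p under 0.05 in limma, 8 had an unadjusted p under 0.05, all higher in KO embryos, and the median log2 fold change was 0.15. Every KO embryo was above every WT embryo in 6 genes and below in 0. Among all genes tested, 5.61% lay wholly above, 5.98% wholly below, and 11.5% had an unadjusted p under 0.05 in limma. Lin28a, an RNA-binding protein that blocks let-7 processing and is switched off as development proceeds, measured 3.42, 2.09 and 6.37 FPKM in KO embryos and 1.31 to 2.09 FPKM in WT embryos (0.82, SE 0.28), so that a single embryo, KOAC10-8, stood well above the rest. Its relative Lin28b measured 6.33 to 8.91 FPKM in KO embryos and 4.78 to 6.196 FPKM in WT embryos (0.47, SE 0.13).

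Of 14 proneural and neurogenic genes, several of which the HES repressors hold back, 13 passed the filter. The median log2 fold change was 0.19, and 11 of 13 were positive, against 8554 of all 16095 genes tested. By limma, 0 had an adjusted p under 0.05. An unadjusted p under 0.05 was found for 3, of which 2 were higher and 1 lower in KO embryos. The count of 3 rested on single embryos. It was 7 without KOAC10-2, 6 without KOAC10-5, 2 without KOAC8-6, KOAC10-8, KOAC8-1 or KOAC9-1, and 1 without KOAC10-7 or with the series as a block. Every KO embryo was above every WT embryo in 1 gene, Olig2, a factor of motor neuron and oligodendrocyte progenitors (4.44 to 5.46 FPKM in KO, 3.41 to 4.26 FPKM in WT embryos). It was below in 1 gene, Ebf2, which is switched on as progenitors leave the cycle (13.6 to 14.6 FPKM in KO, 15.002 to 16.6 FPKM in WT embryos). Either count is 7.69% of the 13 genes, near the 5.61% above and 5.98% below among all genes tested. An unadjusted p under 0.05 in limma was found for 11.5% of all genes.

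The 15 genes of postmitotic neurons, among them Tubb3, Dcx and Stmn2, were all tested. Their median log2 fold change was -0.10, and 10 of 15 were negative, against 7541 of all 16095 genes tested. In limma, 0 had an adjusted and 0 an unadjusted p under 0.05, and the groups overlapped in all 15. Without KOAC10-5, 5 of the 15 had an unadjusted p under 0.05, and without KOAC8-1, 1 had. Their summed level was 1078 to 1226 FPKM in KO embryos and 1087 to 1315 FPKM in WT embryos. The difference between this list and the 10 progenitor genes was not tested.

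**Figure D5:**
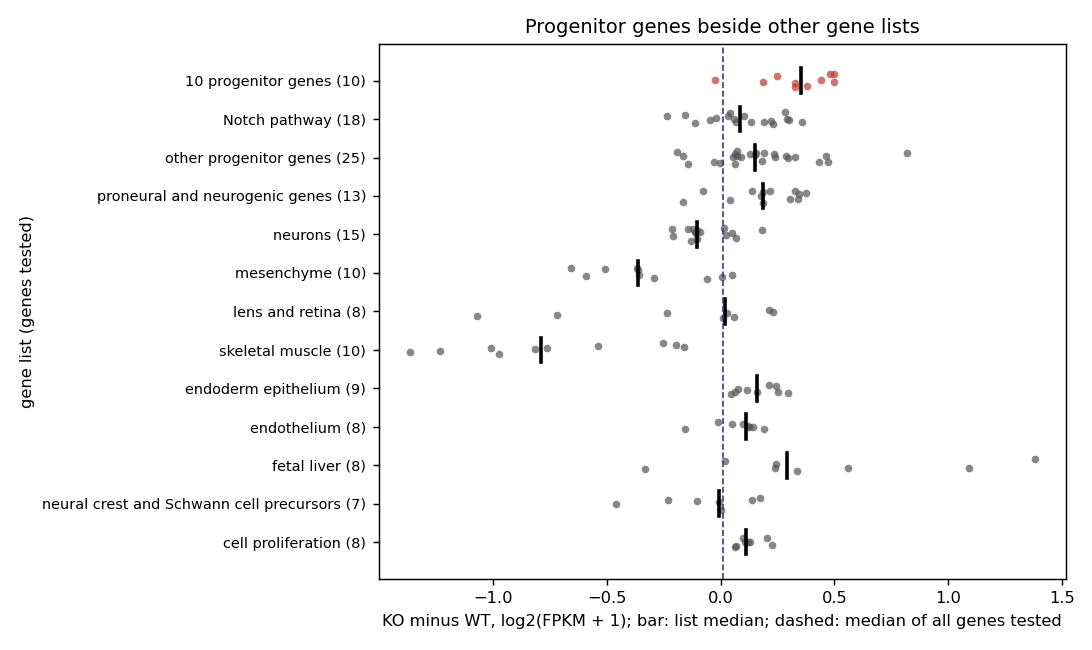
Difference of KO and WT embryos in log2(FPKM + 1) for each tested gene of the 10 progenitor genes (red) and 12 other lists (grey), with the number of genes tested in brackets. Vertical bars are list medians (0.35 for the progenitor genes, -0.10 for neurons, -0.79 for skeletal muscle) and the dashed line is the median of all genes tested, 0.01.

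Values of genes of other tissues also lay apart between the genotypes in the whole embryos, and their part in the values above was not tested. Over the 10 skeletal muscle genes the log2 fold changes had a median of -0.79, the KO values lay wholly below the WT values in 9, and the genes summed to 240 to 284 FPKM in KO embryos and 376 to 501 FPKM in WT embryos. Myh3, the embryonic myosin heavy chain, measured 5.06 to 13.6 FPKM in KO embryos and 18.9 to 31.6 FPKM in WT embryos, and Acta1, skeletal actin, 8.04 to 12.99 FPKM against 24.3 to 43.5 FPKM. Of the 10 mesenchyme genes 5 lay wholly below in KO embryos (median -0.36), among them Col1a1 (49.0 to 86.5 against 89.1 to 114 FPKM) and Postn (29.3 to 46.2 against 52.2 to 68.8 FPKM). The share wholly below among all genes tested was 5.98%. KOAC10-8, the embryo with the highest progenitor genes, had the lowest sum of both lists, 240 FPKM for muscle and 690 FPKM for mesenchyme. FPKM values are relative to the whole RNA of an embryo, so a smaller share of 1 tissue and a larger share of another cannot be told apart here.

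The 8 proliferation genes had a median of 0.11, and 8 of 8 were positive, against 8554 of all 16095 genes tested. Of these 8, 1, Ccnb1, lay wholly above (115 to 122 FPKM in KO, 101 to 114 FPKM in WT embryos). The sum of the 8 genes was also highest in KOAC10-8, at 1235 FPKM. The 9 tested genes of endoderm epithelium, in which Sox2 is also expressed, had a median of 0.16, with Foxa2 wholly above (2.65 to 3.74 against 2.01 to 2.58 FPKM). Medians were 0.11 for endothelium, 0.29 for fetal liver, 0.02 for lens and retina and -0.01 for neural crest and Schwann cell precursors, in which Erbb3 lay wholly below (6.52 to 7.55 against 7.74 to 8.82 FPKM). In none of the 12 lists did a gene pass an adjusted p of 0.05 in limma, with unadjusted p under 0.05 for 9 of the muscle, 6 of the mesenchyme, 2 of the endothelial, 2 of the neural crest, 1 of the endoderm and 0 of the lens and retina, liver and proliferation genes. For all genes tested the share with unadjusted p under 0.05 in limma was 11.5%. The shares wholly above and wholly below were 5.61% and 5.98%.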

How the data were processed

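Values were FPKM per gene and embryo, which the authors deposited; the submitters' processing notes name Salmon, DESeq2, MultiQC and GRCm38. The authors also deposited a mean signal per gene over all embryos (normalized counts), used here for depth and counting error, and their own log2 fold changes, standard errors and p-values, which were not used. Genotypes came from the labels, and 0 FPKM columns were left unmapped. Genes averaging 1 FPKM or more were tested on log2(FPKM + 1) with limma 3.58.1 (lmFit, eBayes with a trend) in R 4.3.3, with Benjamini-Hochberg adjustment over 16095 genes and a threshold of 0.05. Nothing says whether embryos shared a litter, and p-values measure the spread between these embryos. The steps were tested on simulated data.

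The 10 genes and the 12 companion lists were chosen with earlier results of these data known. Genes named from the lists had an adjusted p under 0.05 or, where a list had none, were at most 2 with the highest positive and 2 with the lowest negative fold change among those whose KO values lay outside the WT range. The 8 genes most like the 10 by Pearson correlation, over all embryos and within genotype, and genes overlapping one of the 10 in the annotation are also named. Examples of list contents were chosen freely, as were Numb and the genes named to show the spread within the lens and retina and mesenchyme lists. Positions and shared stretches of 50 bases came from GENCODE M21, and promoters from RefSeq. Relative depth was read from the steps of low FPKM values.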

Additional observations from a re-analysis of the deposited data

Results flagged for a closer look

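Among the WT embryos, 1 value of Sox3 stood apart. KOAC10-2 measured 17.8 FPKM, whereas KOAC8-1, KOAC10-7 and KOAC9-1 measured 12.1, 12.3 and 12.5 FPKM, so that the gap to the nearest embryo took up 0.933 of the whole range of the 4, above Dixon's critical value for 4 samples. The 10 progenitor genes and 16 named genes of the other lists were examined in this way, and about 1 in 20 such groups is flagged by chance. KOAC10-2 was also the highest WT embryo for Sox1, Sox2, Pax6, Hes5, Nes, Vim and Msi1. The cause was not tested.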

How the results depend on the processing

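Under all 20 other settings chosen at the start and 2 added after seeing the data, 0 genes of the Notch pathway, other progenitor, proneural and neuronal lists, had an adjusted p under 0.05. The 9 genes other than Fabp7 were higher in KO embryos under every one of them. Leaving out embryos could not turn the direction of Sox2, Pax6, Hes1, Nes, Vim and Msi1, whose groups did not overlap. The median log2 fold change of the 10 genes, 0.35, ran from 0.25 to 0.44 when each embryo was left out, was 0.36 with the liver gene level as a block and 0.46 without the 3 embryos with low liver genes. The sign of Fabp7 reversed without KOAC8-6 (0.0097) and without KOAC9-1 (0.023), and leaving out each embryo gave values from -0.073 to 0.023. With the KOAC series as a block it was 0.023, over all series and over KOAC8 and KOAC10 alone. Both block settings repeat the estimate without KOAC9-1, because the KOAC9 series held that embryo only. The number of genes called among all those tested, 6, was 7 to 12 when each embryo was left out, 12 being without KOAC8-1, and 17 without the 3 embryos with low liver genes. It was 4 with a minimum mean of 5 FPKM. With the KOAC series in the labels as a block, 7 genes were called among all those tested, and the median over the 10 genes was 0.35. FPKM values carry no read counts, so counting error is known only from the mean signal.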
